A study of Mus musculus with 24 samples.

Results

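Total RNA of murine peripheral blood mononuclear cells (PBMCs) was compared between 2 treatment groups, labelled WT and ct. The comparison takes the 3 WT and the 3 ct libraries, 6 of the 24 samples of the series, and every gene with enough counts for a test, which were 11635 of the 55335 genes listed. The other samples are 15 libraries of RNA on the outer membrane of sorted hematopoietic cells and 3 PBMC libraries of another treatment, labelled Y. All 9 PBMC samples were taken from blood and carry the wild type genotype in their labels, so that WT is here the name of a treatment and not of a genotype. What was given under the names ct, WT and Y, for how long, and to how many mice or cultures is not given in the sources used here. The samples of a group may therefore be technical repeats, in which case the p-values measure only the spread between these preparations.

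The PBMC libraries were made from total RNA and held between 6825484 and 9055761 counts in ct and WT. A ribosomal RNA gene, CT010467.1, took between 50.5% and 57.0% of them. Levels are given as CPM, the library-size-scaled counts of edgeR after its TMM normalization, and 1 CPM stood for between 6.67 and 9.17 counts in the 6 libraries. WT replicate 3 stood apart by a scaling factor of 0.783, against 0.972 to 1.09 in the other 5, and by the lowest share of mitochondrially encoded RNA, 1.92% of its counts. Pearson's r of log2 CPM across genes lay between 0.964 and 0.970 for the pairs of libraries within a group. The defining markers of the labelled cell type were present: the summed level of 25 T cell markers was 862 ± 8.88 CPM in ct and 835 ± 9.60 CPM in WT (SD, n = 3), that of 21 B cell markers 672 ± 9.96 and 685 ± 4.48 CPM, and that of 30 monocyte markers 936 ± 31.4 and 989 ± 14.3 CPM.

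PBMCs are lymphocytes, monocytes and dendritic cells. Platelets, which bud from megakaryocytes and carry their RNA, and red cells, whose RNA is mostly globin mRNA, are not mononuclear cells but are often carried along in their preparation. White blood cells that meet a stimulus first transcribe the immediate early genes, which need no new protein: the AP-1 factors of the Fos and Jun families, Egr and NR4A factors, and the DUSP phosphatases that switch the signal off again. NF-kB signalling induces its own inhibitors, such as Nfkbia and Tnfaip3, together with cytokine genes.

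In WT, 89 genes were higher and 186 were lower than in ct, by edgeR's quasi-likelihood test at an adjusted p below 0.05. These are 0.765% and 1.60% of the genes tested, and 2.36% together. The counts of calls in each list below are to be read beside these shares. An unadjusted p below 0.05 was found for 1368 genes. The changes were modest. The median log2 fold change was 0.62 among the genes called higher and -0.59 among those called lower, and only 17 and 13 genes moved by 2-fold or more. The 3 WT libraries lay beyond all 3 ct libraries for 88 of the 89 and for all 186, as they did for 7.62% of all genes tested in the upward and 8.62% in the downward direction. With any 1 of the 6 libraries left out, the counts were 56 to 126 and 111 to 143, and without WT replicate 3 they were 60 and 143. With library totals in place of TMM scaling they were 26 and 100, which moved the median of all genes from 0.00 to -0.07 on the log2 scale. For each named gene, the number of alternatives that lost its call, of up to 18 run, is given where it was 3 or more.

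**Figure D1:**
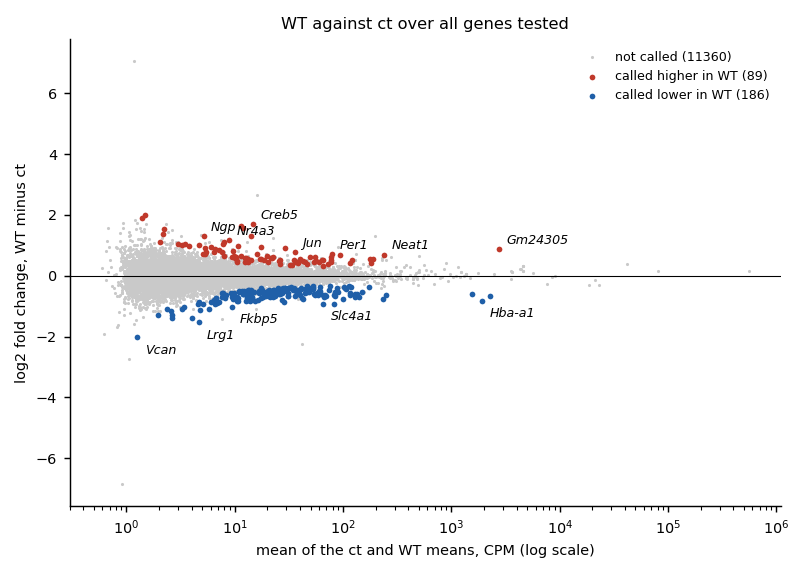
Change between WT and ct for the 11635 genes tested. The x axis is the mean of the ct and WT means in CPM on a log scale, the y axis the log2 fold change, and each point a gene: 89 were called higher (red), 186 lower (blue) and 11360 were not called (grey). The called genes with the highest levels are Gm24305 above 0 and the globin genes below it.

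Of the 186 lower genes, 35 were on the lists of platelet and red cell markers, and no other of the 36 gene lists held as many. Of the 20 platelet markers, all of which were tested, 18 were called lower and none higher, with a median log2 fold change of -0.65 beside 0.00 over all genes tested. Of the 21 erythroid markers tested, of 26 listed, 17 were lower and none higher, with a median of -0.68. These lists, like all 36, were chosen with earlier results of these data known, so that their direction is not independent evidence. The summed level of the platelet markers was 1089.9, 1122 and 1153 CPM in the ct libraries and 715, 691 and 753 CPM in the WT libraries. The summed level of the erythroid markers was 7564, 8963 and 8272 CPM in ct and 5062, 4737 and 5421 CPM in WT. On both sums every WT library lay below every ct library, and WT stood at 0.642 and 0.614 of the ct mean. In bulk RNA, fewer cells of a type and less RNA per cell cannot be told apart.

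Among the platelet genes, Thbs1, which encodes the adhesive protein thrombospondin-1 released from alpha granules (chr2:118111876-118127133, GRCm38), fell furthest. It stood at 105, 108 and 110.2 CPM in ct and at 50.8, 56.9 and 62.4 CPM in WT, a log2 fold change of -0.93 ± 0.09 (SE; edgeR adjusted p = 0.000167). Itga2b, the alpha chain of the fibrinogen receptor, was 169, 177 and 179 CPM in ct and 111, 97.3 and 115 CPM in WT. The groups did not overlap for either gene. The lipoxygenase Alox12 (log2 fold change -0.74) and multimerin, Mmrn1 (-0.79), fell by similar amounts, with edgeR adjusted p = 0.000215 for both. The granule chemokines Pf4 and Ppbp fell as well, from 103 ± 11.5 to 64.8 ± 3.05 CPM and from 107 ± 6.63 to 73.4 ± 1.48 CPM (SD, n = 3). Of the platelet ADP receptors, P2ry1 stood at 7.37, 5.99 and 6.52 CPM in ct and at 3.60, 3.42 and 3.53 CPM in WT (log2 fold change -0.92, adjusted p = 0.00603), and P2ry12 changed by -0.50 (adjusted p = 0.00907). Coagulation factor V, F5, changed by -0.65 and the serotonin transporter Slc6a4, which loads serotonin into platelets, by -0.78. P2ry12, F5, Slc6a4, Pf4 and Ppbp were singled out after their values were seen. Of 3 endothelial and stromal markers tested, 1 was lower: Vwf, which encodes von Willebrand factor and is also stored in platelets, at 164 ± 9.46 CPM in ct and 107 ± 5.91 CPM in WT (adjusted p = 0.0012).

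Of the 21 erythroid markers tested, 20 had a negative log2 fold change, and the positive one, the iron uptake receptor Tfrc, was not called (0.36). Slc4a1, the anion exchanger band 3 of the red cell membrane (chr11:102348824-102366203, GRCm38), was 79.8, 97.4 and 81.8 CPM in ct and 47.8, 41.8 and 46.1 CPM in WT, a log2 fold change of -0.93 ± 0.09 (SE; edgeR adjusted p = 0.000167). Alas2, the first enzyme of erythroid heme synthesis, was 119, 132 and 129 CPM in ct and 72.2, 71.4 and 76.8 CPM in WT (log2 fold change -0.78, adjusted p = 0.000213). The beta globin gene Hbb-bs stood at 2532, 2921 and 2819.6 CPM in ct and at 1697, 1676 and 1844 CPM in WT. In each of these genes the lowest ct library lay above the highest WT library. The alpha globin genes Hba-a1 (log2 fold change -0.82, adjusted p = 0.00191) and Hba-a2 (-0.62, adjusted p = 0.0113, lost under 3 alternatives) and the second beta globin gene Hbb-bt (-0.78, adjusted p = 0.000381) fell too. Each pair of globin genes is nearly identical in sequence, so that the division of reads within a pair is uncertain. The poly(A) polymerase Tent5c changed by -0.71 and Bnip3l, which removes mitochondria from maturing red cells, by -0.38, a call lost under 9 alternatives. The peroxiredoxin Prdx2, a gene outside the list that was singled out after its values were seen, changed by -0.82. The calls of these lists did not rest on 1 library: 14 to 17 platelet and 13 to 15 erythroid markers were called lower when any of the 6 was left out.

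**Figure D2:**
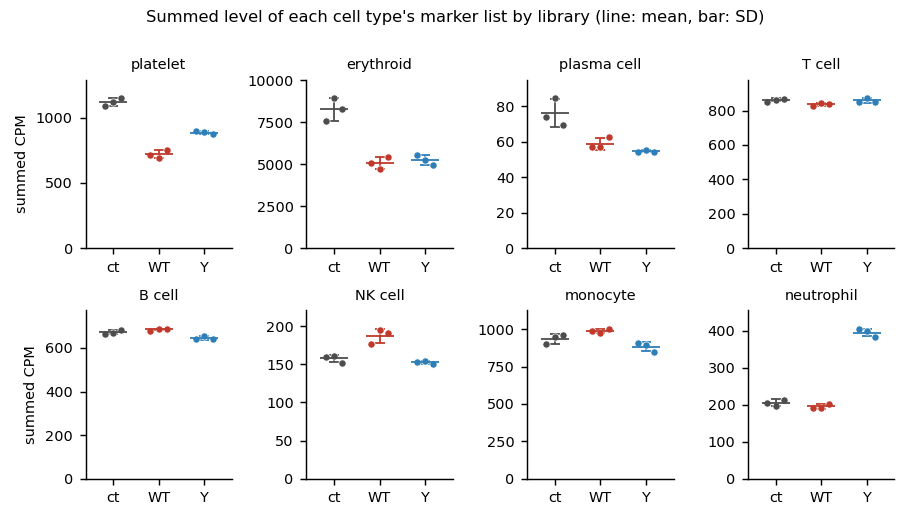
Summed level in CPM of 8 marker lists in the 9 PBMC libraries, with a point for each library, a line for the mean and a bar for the SD of each group. The WT points lie below the ct points for platelet (720 against 1122 CPM on average), erythroid, plasma cell and T cell markers and above them for NK cell and monocyte markers, and the Y points stand apart for neutrophil markers.

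The promoter of Alas2 is shown because the erythroid genes moved together and because it carries a match to the GATA motif AGATAA, bound by the erythroid factor GATA1. The sequence runs 5′ to 3′ from 250 bases before to 50 bases after the start of the gene (chrX:150547167-150547466, plus strand, RefSeq on GRCm38.p6), and the capitals mark the match, which lies on the opposite strand and begins 86 bases before the start.
Alas2: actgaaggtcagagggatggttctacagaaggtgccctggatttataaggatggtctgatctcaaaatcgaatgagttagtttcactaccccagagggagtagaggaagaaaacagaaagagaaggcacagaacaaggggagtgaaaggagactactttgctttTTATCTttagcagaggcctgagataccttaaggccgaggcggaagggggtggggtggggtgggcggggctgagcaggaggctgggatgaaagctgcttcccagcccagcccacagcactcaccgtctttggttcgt
On either strand, AGATAA occurred in 11.2% of all 32851 promoters of this table, in 6.57% of those of the genes tested, in 9.63% of the 187 promoters of genes called lower and in 8.33% of the 72 of genes called higher. Promoters were found for 139 of the 186 lower genes, and a match is a description of the sequence, not a binding site.

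Among the higher genes, immediate early genes held the most calls of any list. Of 31 AP-1 and immediate early genes tested, 15 were called higher and none lower, where 0.765% and 1.60% of all genes were. Of the 31, 30 had a positive log2 fold change, and the median was 0.43. The WT libraries lay above all ct libraries for 25 of the 31, whereas this held for 7.62% of all genes tested. This list too was chosen with earlier results of these data known, so that the contrast is not independent evidence. With library totals in place of TMM scaling only 1 of the 31 was called, and without any 1 library between 11 and 14 were. Platelet and erythroid marker RNA was lower in the same WT libraries, at 0.642 and 0.614 of the ct mean, and its part in this and the following results was not tested.

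Jun, a subunit of the AP-1 factor (chr4:95049034-95052222, GRCm38), was 27.4, 26.4 and 26.6 CPM in ct and 42.8, 45.9 and 47.9 CPM in WT, a log2 fold change of 0.76 ± 0.09 (SE; edgeR adjusted p = 0.000228). Junb, its relative, was 141, 153 and 139 CPM in ct and 197, 208 and 222 CPM in WT (log2 fold change 0.54, adjusted p = 0.00254). For both genes the groups were separate. Fos rose from 50.4 ± 0.908 to 69.2 ± 1.80 CPM and the zinc finger factor Egr1 from 15.4 ± 2.29 to 24.1 ± 2.16 CPM (SD, n = 3, edgeR adjusted p = 0.00703 for both), and these were singled out after their values were seen. Atf3, a stress-induced partner of AP-1 factors, rose by 0.88 on the log2 scale (adjusted p = 0.011, lost under 3 alternatives). Among the genes that end the signal, the phosphatase Dusp5, which acts on nuclear ERK, was 17.6, 18.3 and 17.4 CPM in ct and 27.7, 25.7 and 28.6 CPM in WT (log2 fold change 0.62, adjusted p = 0.00175). Dusp1, which acts on several MAP kinases, was 96.2, 111 and 91.9 CPM in ct and 141, 140.3 and 142 CPM in WT (log2 fold change 0.50, adjusted p = 0.00329). Ppp1r15a, a phosphatase subunit that restarts translation after stress, rose from 38.8 ± 2.95 to 59.4 ± 4.70 CPM (adjusted p = 0.00118). The calls of Junb, Dusp1, Dusp5 and Ppp1r15a were lost with library totals, where only Jun kept its call among the genes of this paragraph.

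Creb5, a CREB/ATF family factor that binds cAMP response elements (chr6:53287270-53700376, GRCm38), had the largest positive change among the called genes with separate groups and at least 5 CPM in the higher group. It was 6.78, 8.84 and 5.69 CPM in ct and 21.3, 27.6 and 18.7 CPM in WT, a log2 fold change of 1.68 ± 0.20 (SE; edgeR adjusted p = 0.000228). The lowest WT library was above the highest ct library. Of 22 genes of the CREB/ATF and cAMP response list, 3 were higher (Creb5, Atf3 and the kinase Sik1) and none lower, where 0.765% of all genes were higher, and the median was 0.02. Atf3 and Sik1 were already counted in the AP-1 and immediate early list. Of the 22, 12 had a positive and 10 a negative log2 fold change. Sik1, which restrains CREB co-activators, was 64.2, 64.6 and 57.9 CPM in ct and 80.3, 81.6 and 83.1 CPM in WT (log2 fold change 0.39, adjusted p = 0.011). Of the 14 Kruppel-like and NR4A factors, 5 were higher and none lower, with a median of 0.30. Nr4a3, an orphan nuclear receptor induced by antigen receptor and cAMP signals, was 6.18, 5.99 and 4.27 CPM in ct and 12.2, 11.9 and 12.7 CPM in WT (log2 fold change 1.17, adjusted p = 0.000381). Its relative Nr4a1 rose by 0.44 (adjusted p = 0.0111), and the repressors Klf10 and Klf11 by 0.56 and 0.59 (adjusted p = 0.0184 and 0.0319). Klf10 and Klf11 each lost their calls under 7 alternatives, DESeq2 included, where 2 members of the list were called, and 2 to 4 were called when any 1 of the 6 libraries was left out.

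Of 24 NF-kB feedback genes, 4 were higher and none lower, where 0.765% and 1.60% of all genes were, with a median of 0.24. Tnfaip3, the ubiquitin-editing inhibitor A20 (chr10:19000910-19015657, GRCm38), was 157, 144 and 159 CPM in ct and 222, 225 and 227 CPM in WT, a log2 fold change of 0.55 ± 0.08 (SE; edgeR adjusted p = 0.00121). Nfkbia, the inhibitor that holds NF-kB in the cytoplasm, was 96.6, 101 and 97.9 CPM in ct and 132, 134 and 129.8 CPM in WT (log2 fold change 0.42, adjusted p = 0.00806). Neither gene overlapped between the groups. The NF-kB subunit Rel rose by 0.50 (adjusted p = 0.00284) and the nuclear inhibitor Nfkbid by 0.58 (adjusted p = 0.0105). With library totals, 0 of the 24 were called.

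Cytokine genes were scarce, and 15 of the 34 listed were tested. Of these, 4 were higher and none lower, where 0.765% and 1.60% of all genes were, with a median of 0.38. Tnf, which encodes tumor necrosis factor, was 4.88, 5.39 and 5.10 CPM in ct and 9.27, 9.37 and 8.91 CPM in WT (log2 fold change 0.85 ± 0.13, SE; edgeR adjusted p = 0.00191), with no overlap. The chemokine Ccl4 was 1.43, 0.599 and 1.30 CPM in ct and 2.95, 3.93 and 3.11 CPM in WT (log2 fold change 1.52, adjusted p = 0.0117). Il1b, which encodes interleukin-1 beta, rose by 0.54 (adjusted p = 0.0278) and the chemokine Ccl5 by 0.52 (adjusted p = 0.0256). The calls of Il1b and Ccl5 were each lost under 6 of the alternatives tried, and with library totals only 1 of the 15 was called. DESeq2 also called 1 of them, and with any 1 of the 6 libraries left out 1 to 4 were called higher.

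**Figure D3:**
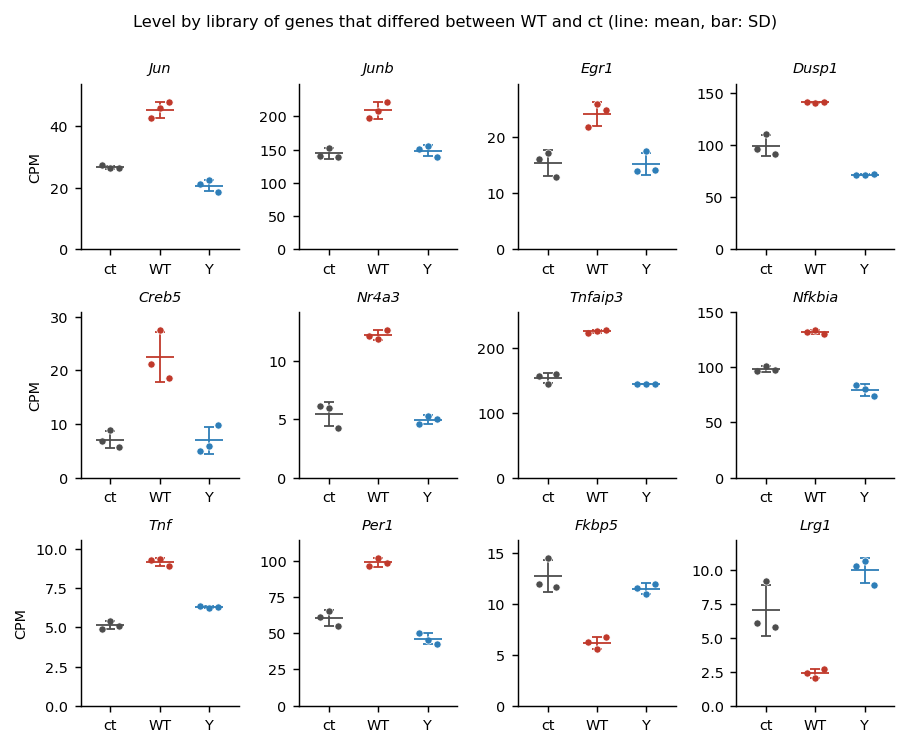
Level in CPM of 12 genes in the 9 PBMC libraries, with a point for each library, a line for the mean and a bar for the SD of each group. In the first 10 panels the WT points lie above the ct points, in Creb5 at 22.5 against 7.10 CPM on average, and in Fkbp5 and Lrg1 they lie below them.

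The promoters of Creb5, Dusp5 and Nfkbia are shown as examples from 3 lists with higher genes. Each carries a motif of factors known to act on such genes, and they were chosen after their values were seen. They run 5′ to 3′ from 250 bases before to 50 bases after the start (RefSeq on GRCm38.p6), with the matches in capitals. In Creb5 (chr6:53287053-53287352, plus strand) the capitals mark the E-box CACGTG, which begins 49 bases before the start, and the cAMP response element TGACGTCA, which begins 45 bases before it and overlaps the E-box. Creb5 has 2 starts among these promoters, and the one shown was picked for its number of matches to these motifs. In Dusp5 (chr19:53528895-53529194, plus strand) they mark 2 adjacent CArG boxes, the motif of serum response factor, which begin 82 and 72 bases before the start. In Nfkbia (chr12:55492598-55492897, minus strand) they mark a match to the consensus NF-kB motif on the opposite strand, 29 bases before the start.
Creb5: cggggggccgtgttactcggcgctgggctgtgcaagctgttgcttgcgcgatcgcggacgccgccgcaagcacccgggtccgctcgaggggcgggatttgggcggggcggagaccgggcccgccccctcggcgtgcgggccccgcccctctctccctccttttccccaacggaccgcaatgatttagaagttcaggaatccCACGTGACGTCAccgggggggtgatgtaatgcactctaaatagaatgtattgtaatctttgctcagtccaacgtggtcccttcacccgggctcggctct
Dusp5: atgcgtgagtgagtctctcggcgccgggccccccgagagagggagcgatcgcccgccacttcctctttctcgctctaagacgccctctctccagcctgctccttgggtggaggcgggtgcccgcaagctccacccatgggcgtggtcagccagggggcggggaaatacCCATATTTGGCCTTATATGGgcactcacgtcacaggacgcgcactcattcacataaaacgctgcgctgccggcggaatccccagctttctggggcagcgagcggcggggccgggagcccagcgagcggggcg
Nfkbia: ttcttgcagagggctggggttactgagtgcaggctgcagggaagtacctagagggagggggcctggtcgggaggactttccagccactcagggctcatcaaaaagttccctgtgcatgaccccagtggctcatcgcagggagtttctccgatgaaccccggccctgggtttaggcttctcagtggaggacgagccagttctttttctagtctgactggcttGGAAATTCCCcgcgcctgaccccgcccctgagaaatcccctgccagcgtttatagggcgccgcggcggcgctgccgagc
All motifs were searched on both strands. TGACGTCA occurred in 1.79% of all promoters, in 3.04% of those of the genes tested, in 4 of the 72 promoters of the higher genes, which belong to 52 of the 89 genes, and in 7 of the 187 promoters of the lower genes. The CArG box occurred in 1.63% of all promoters, in 1.21% of those of the genes tested, in 3 of the 72 and in 2 of the 187. The NF-kB motif, a short and degenerate consensus, occurred in 8.46%, in 10.6%, in 12 of the 72 and in 16 of the 187. The AP-1 motif TGANTCA occurred in 7.81% of all promoters, in 4.98% of those of the genes tested, in 6 of the 72 and in 20 of the 187.

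Of 19 circadian clock genes, 3 were higher and none lower, where 0.765% and 1.60% of all genes were, with a median of 0.02. Per1, a repressor of the clock that is also an immediate early target of cAMP and of glucocorticoids (chr11:69095217-69109960, GRCm38), was 61.4, 65.5 and 54.7 CPM in ct and 96.2, 102 and 98.0 CPM in WT, a log2 fold change of 0.71 ± 0.09 (SE; edgeR adjusted p = 0.000434). The groups did not overlap. Bhlhe40, an E-box repressor, rose by 0.65 (adjusted p = 0.0105, lost under 4 alternatives). Ciart, a repressor of the clock activators, was scarce, at 0.714, 0.30 and 0.712 CPM in ct and 2.51, 1.77 and 2.40 CPM in WT (log2 fold change 1.88, adjusted p = 0.0132, lost under 3 alternatives). The promoter of Ciart (chr3:95882179-95882478, minus strand) is shown because it holds 3 E-boxes, the motif of the clock activators, which begin 116, 58 and 44 bases before the start and are in capitals.
Ciart: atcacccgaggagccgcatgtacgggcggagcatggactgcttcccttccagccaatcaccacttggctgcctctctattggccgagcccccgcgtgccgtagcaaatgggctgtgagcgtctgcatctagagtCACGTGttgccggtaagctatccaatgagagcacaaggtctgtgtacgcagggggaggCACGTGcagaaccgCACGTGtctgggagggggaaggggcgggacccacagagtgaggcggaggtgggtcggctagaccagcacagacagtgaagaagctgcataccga
At least 1 CACGTG occurred in 7.15% of all promoters, in 10.4% of those of the genes tested, in 10 of the 72 promoters of the higher genes and in 13 of the 187 of the lower genes.

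Among 19 glucocorticoid-induced genes the members moved both ways: 4 were higher (Per1, Dusp1, Nfkbia and Cdkn1a) and 2 lower, with a median of 0.07. Fkbp5, a co-chaperone of the glucocorticoid receptor that is a standard readout of its activity (chr17:28399094-28517527, GRCm38), was 12, 14.5 and 11.6 CPM in ct and 6.22, 5.57 and 6.79 CPM in WT, a log2 fold change of -1.03 ± 0.13 (SE; edgeR adjusted p = 0.000434). The highest WT library was below the lowest ct library. The other lower member was Il7r, the interleukin-7 receptor of T cells, which changed by -0.44 (adjusted p = 0.0202, lost under 6 alternatives). Each of the higher members was also on another list. These were the circadian clock for Per1, AP-1 and immediate early genes for Dusp1, NF-kB feedback for Nfkbia and p53 targets for Cdkn1a. The cause of the changes in either direction was not tested.

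Of 23 genes for p53 targets and cell death, 2 were higher and 1 was lower. Gadd45b, a stress sensor induced by NF-kB, was 11.5, 12.9 and 11.5 CPM in ct and 23, 23.6 and 22.5 CPM in WT (log2 fold change 0.95 ± 0.11, SE; edgeR adjusted p = 0.000215). The cell cycle inhibitor Cdkn1a rose by 0.77 (adjusted p = 0.041), a call lost under 9 alternatives, and the survival gene Bcl2l1, which erythroid cells and platelets also use, changed by -0.60 (adjusted p = 0.00284). Of 27 genes of the unfolded protein and integrated stress response, 2 were higher, Ppp1r15a and the endoplasmic reticulum chaperone Hspa5, and Hspa5 was also the single call among 32 heat shock genes (log2 fold change 0.33, adjusted p = 0.0475, lost under 11 alternatives). Of 26 hypoxia and glycolysis genes, 3 were lower, at -0.54 for the Myc antagonist Mxi1 (adjusted p = 0.00899, lost under 4 alternatives), -0.38 for Bnip3l (adjusted p = 0.0331, lost under 9 alternatives) and -0.33 for the glucose transporter Slc2a3 (adjusted p = 0.0498, lost under 15 alternatives), which platelets also carry. With any 1 of the 6 libraries left out, 0 to 2 hypoxia and glycolysis genes were called lower. Of 26 migration and homing receptors, the integrin Itgb1 was lower by a call at the threshold (log2 fold change -0.35, lost under 14 alternatives).

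Of 61 interferon-stimulated genes, none was higher and 1 was lower, with a median of 0.04, where 0.765% of all genes tested were higher and 1.60% lower. The lower gene was Rsad2, the antiviral enzyme viperin (chr12:26442746-26456452, GRCm38), which was 26.6, 23.5 and 29.5 CPM in ct and 15.4, 16.8 and 18.0 CPM in WT (log2 fold change -0.68 ± 0.11, SE; edgeR adjusted p = 0.00191). The WT libraries lay above all ct libraries for 5 of the 61 genes and below them for 4, where 7.62% and 8.62% of all genes did. Irf1, a transcription factor outside the list that NF-kB and interferon gamma induce, rose from 37.3 ± 0.649 to 51.2 ± 1.48 CPM (SD, n = 3, adjusted p = 0.00273), as did the histone demethylase Kdm6b, from 52.8 ± 6.88 to 74.8 ± 2.42 CPM (adjusted p = 0.0101), and both were singled out after their values were seen. Among 39 RNA sensors and adaptors, 0 were called in either direction by edgeR, DESeq2 or limma-voom, 6 had an unadjusted p below 0.05, where 11.8% of all genes did, and the median was 0.08. For 8 of the 39 the WT libraries lay above all ct libraries and for 1 below them, beside 7.62% and 8.62% of all genes. In this list the most abundant members, the RNA transporters Sidt2 and Sidt1, had log2 fold changes of -0.04 and -0.01.

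The Y RNAs are short cytoplasmic RNAs bound by the ring-shaped protein Ro60 and, at their 3′ end, by La, the product of Ssb. Ro60 (chr1:143750790-143777068, GRCm38) was lower in WT, at 14.4, 14.8 and 11.2 CPM in ct and 7.31, 7.85 and 7.35 CPM in WT, a log2 fold change of -0.83 ± 0.16 (SE; edgeR adjusted p = 0.0076). Rny1 was 159.8, 151 and 248 CPM in ct and 118, 132 and 135 CPM in WT. Its WT libraries lay below all ct libraries, but the difference of -0.54 did not pass the test (adjusted p = 0.0676), and ct replicate 3 was the highest of all. With any 1 of the 6 libraries left out, the Rny1 difference lay between -0.67 and -0.27. Rny3 was 197, 188 and 265 CPM in ct and 154, 173 and 229 CPM in WT, and the groups overlapped (adjusted p = 0.59). Ssb was 7.17 ± 0.886 CPM in ct and 5.76 ± 1.46 CPM in WT (SD, n = 3, adjusted p = 0.587). DESeq2, the fit with replicate numbers as a block, the fit without the filter and the fits without ct replicate 1 or ct replicate 2 called 2 of the 4 lower.

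Small nuclear RNAs held the most calls among the non-coding RNA types. Of 157 tested, 10 were higher and none lower, with a median log2 fold change of 0.34, and 5 of 272 small nucleolar RNAs were higher and none lower, with a median of 0.21. Over all genes tested, 0.765% were higher and 1.60% lower. Of 9555 protein-coding genes, 65 were higher and 177 lower, and of 54 ribosomal RNA genes 0 were called by edgeR, DESeq2 or limma-voom, although 22 had an unadjusted p below 0.05 and the median was 0.49. By alignment to named copies, 8 of the 10 were copies of U1, the RNA that pairs with the 5′ splice site, out of 43 U1 copies tested, and 1 each belonged to U2 and U6. Many of these genes are near-identical copies and others are less alike, so that the assignment of reads to any 1 of them is uncertain. The summed level of the 43 U1 copies was 33969 ± 3014 CPM in ct and 41817 ± 8880 CPM in WT (SD, n = 3), and the WT library with the lowest sum, at 33436 CPM, lay below the highest ct library, at 37447 CPM.

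Gm24305, a U1 copy (chr12:54734555-54734718, minus strand, GRCm38), had the largest rise in CPM among the called genes. It was 1836, 1725 and 2239 CPM in ct and 3746, 3031 and 3844 CPM in WT, a log2 fold change of 0.87 ± 0.14 (SE; edgeR adjusted p = 0.00171). Rnu1a1, a reference copy of U1 (chr11:87422867-87423030, plus strand), was 3978, 4181 and 4858 CPM in ct and 5089, 3737 and 5660.1 CPM in WT, and its groups overlapped (adjusted p = 0.782). Both genes are shown, from GENCODE M21, because their 164 bases differ at 1 position, which is in capitals: A26G, counted from 1 at the 5′ end of Rnu1a1, with the base of Rnu1a1 first.
Rnu1a1: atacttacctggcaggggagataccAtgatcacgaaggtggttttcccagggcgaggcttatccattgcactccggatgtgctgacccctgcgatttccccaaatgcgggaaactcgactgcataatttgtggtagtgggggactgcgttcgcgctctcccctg
Gm24305: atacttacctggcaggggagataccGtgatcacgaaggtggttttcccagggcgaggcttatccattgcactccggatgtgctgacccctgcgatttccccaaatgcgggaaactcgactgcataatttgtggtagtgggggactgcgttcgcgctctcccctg
The other called U1 copies were scarcer and less alike, between 90.5% and 95.1% identical to Rnu1a1 over the aligned part. Gm23928 was 3.69, 6.74 and 6.29 CPM in ct and 10.9, 25.1 and 15.3 CPM in WT (log2 fold change 1.62, adjusted p = 0.00224). Gm22456 changed by 1.32 (adjusted p = 0.0037) and Gm26505, singled out after its values were seen, was 20.3, 19.9 and 19.9 CPM in ct and 27.1, 43.3 and 44.4 CPM in WT. In these scarce copies WT replicate 1 was the lowest of the WT libraries.

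**Figure D4:**
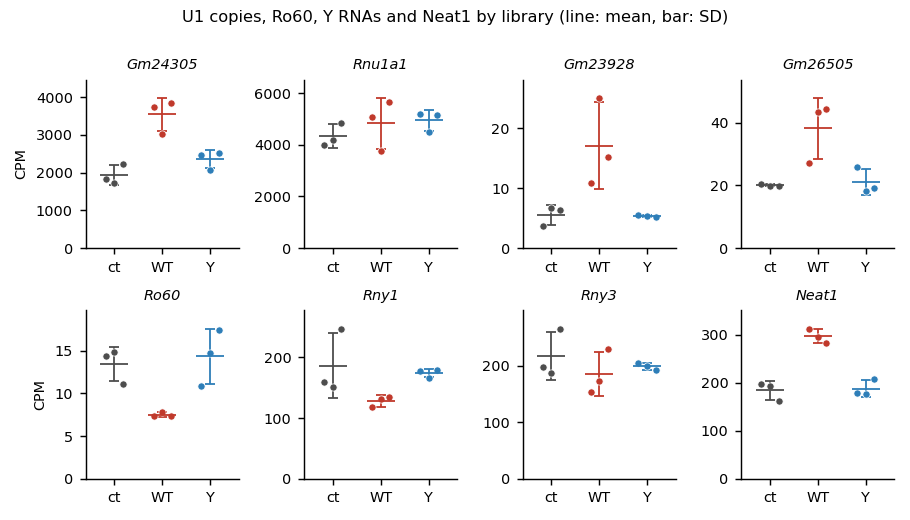
Level in CPM of U1 copies, Ro60, the Y RNAs and Neat1 in the 9 PBMC libraries, with a point for each library, a line for the mean and a bar for the SD of each group. Gm24305 lies higher in WT (3541 CPM on average) than in ct (1933 CPM) while the groups overlap for Rnu1a1, and Ro60 lies lower in WT.

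Neat1, the long non-coding RNA that builds nuclear paraspeckles (chr19:5824708-5845478, GRCm38), was 198, 193 and 163 CPM in ct and 313, 296 and 283 CPM in WT, a log2 fold change of 0.69 ± 0.10 (SE; edgeR adjusted p = 0.00118). It was the single call among 19 snoRNA host genes and nuclear long non-coding RNAs, with no overlap of the groups. The sense-intronic RNA Gm43846 rose by 1.58 (adjusted p = 0.00972), although ct replicate 3, at 10.6 CPM, lay well above the other ct libraries at 3.33 and 3.75 CPM. Of 70 histone genes, 2 were higher and none lower, with a median of 0.26: Hist1h3h (log2 fold change 1.11, adjusted p = 0.0331) and Hist1h2ap (0.94, adjusted p = 0.0319), both from the replication-dependent cluster on chromosome 13. Their calls were lost under 5 and 7 alternatives. With any 1 of the 6 libraries left out, 0 to 3 histone genes were called higher. For 20 of the 70 the WT libraries lay above all ct libraries and for 1 below them, where 7.62% and 8.62% of all genes did. An unadjusted p below 0.05 was found for 19 of the 70, beside 11.8% of all genes. Among 19 proliferation genes 0 were called by edgeR, DESeq2 or limma-voom and 3 had an unadjusted p below 0.05, with a median of 0.20. Cks2, a subunit of cyclin-dependent kinases outside this list that was singled out after its values were seen, had the largest positive log2 fold change of all called genes, 1.98, from 0.595 ± 0.237 to 2.40 ± 0.346 CPM (SD, n = 3, adjusted p = 0.00585).

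Of the leukocyte markers, few were called in each list, and the direction of the calls differed between lists. Of 18 natural killer (NK) cell markers tested, of 23 listed, 3 were higher and none lower, with a median of 0.43, where 0.765% of all genes were higher. A positive log2 fold change was found for 17 of the 18. For 8 the WT libraries lay above all ct libraries and for 1 below them, where 7.62% and 8.62% of all genes did. An unadjusted p below 0.05 was found for 8, beside 11.8% of all genes. The activating receptor Ncr1 was 4.64, 3.90 and 3.56 CPM in ct and 7.85, 6.33 and 6.36 CPM in WT (log2 fold change 0.77 ± 0.18, SE; edgeR adjusted p = 0.0272, lost under 6 alternatives), and Klrb1c, which encodes NK1.1, was 1.31, 1.35 and 1.19 CPM in ct and 2.84, 2.91 and 2.55 CPM in WT (adjusted p = 0.0484, lost under 13 alternatives). The groups were separate for both. The summed level of the NK markers was between 152 and 161 CPM in ct and between 177 and 195 CPM in WT. DESeq2 called 0 of the 18, and the fits without ct replicate 2 or ct replicate 3 called 0 as well.

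Neutrophil genes moved both ways. The secondary granule genes Ngp, which encodes neutrophilic granule protein, and Ltf, which encodes lactoferrin, are made in bone marrow precursors. Ngp was 2.38, 3.00 and 3.56 CPM in ct and 7.31, 6.97 and 7.92 CPM in WT (log2 fold change 1.31 ± 0.19, SE; edgeR adjusted p = 0.00118), and Ltf rose by 1.01 (adjusted p = 0.00452). The alarmin genes S100a8 and S100a9, abundant in mature neutrophils and monocytes, were lower. S100a8 was 28.4, 24.9 and 29.8 CPM in ct and 15.8, 18.5 and 16.5 CPM in WT (log2 fold change -0.71, adjusted p = 0.000821), and S100a9 changed by -0.41 (adjusted p = 0.0342, lost under 8 alternatives). The lectin receptor Clec4d, singled out after its values were seen, changed by -1.17 (adjusted p = 0.0381, lost under 8 alternatives). Over all 24 neutrophil markers tested, 2 were higher and 3 lower, where 0.765% and 1.60% of all genes were. The median was 0.00, and the summed level was 206 ± 9.20 CPM in ct and 196 ± 6.52 CPM in WT. For 7 of the 24 the WT libraries lay above all ct libraries and for 6 below them, where 7.62% and 8.62% of all genes did. An unadjusted p below 0.05 was found for 12, beside 11.8% of all genes. Lrg1, which encodes a glycoprotein of neutrophil granules (chr17:56119678-56122001, GRCm38), had the largest fall among called genes with separate groups and at least 5 CPM in the higher group, from 6.07, 9.14 and 5.81 CPM in ct to 2.40, 2.03 and 2.69 CPM in WT (log2 fold change -1.54, adjusted p = 0.00107).

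Of 30 monocyte markers, 2 were higher and 2 lower, with a median of 0.04. Ly6c2, a marker of classical monocytes that lymphocyte subsets also express, was 9.16, 7.49 and 9.85 CPM in ct and 13.5, 13.8 and 14.3 CPM in WT (log2 fold change 0.64 ± 0.12, SE; edgeR adjusted p = 0.00703), and the other higher marker was the immediate early gene Nr4a1. The proteoglycan gene Vcan had the largest negative fold change of all called genes at a low level, 2.74, 1.5 and 1.9 CPM in ct and 0.764, 0.380 and 0.283 CPM in WT (log2 fold change -2.03 ± 0.46, adjusted p = 0.0247, lost under 5 alternatives). The lower marker F13a1, the coagulation factor XIII subunit that platelets carry too, changed by -0.36 (adjusted p = 0.0399, lost under 11 alternatives). Of the lymphocyte markers, 1 of 25 T cell genes, Il7r, was lower. Of 21 B cell genes, 0 were called by edgeR, DESeq2 or limma-voom and 3 had an unadjusted p below 0.05, and the most abundant, Ighm, had a log2 fold change of 0.02. Of 6 plasma cell markers tested, 2 were lower: the IgA constant region Igha, at 43.3, 51.5 and 38.4 CPM in ct and 28.0, 29.6 and 32.8 CPM in WT (adjusted p = 0.00723), and Jchain, which joins IgA chains (log2 fold change -0.75, adjusted p = 0.0178, lost under 4 alternatives). Among 8 dendritic cell, 2 basophil and mast cell, 3 eosinophil and 5 stem and progenitor cell markers, 0 were called by edgeR, DESeq2 or limma-voom, and 1, 1, 1 and 3 had an unadjusted p below 0.05. Their log2 fold changes went both ways, from -0.48 to 0.29 in the dendritic cell, -0.08 to 0.56 in the basophil and mast cell, -0.08 to 0.56 in the eosinophil and -0.80 to 0.61 in the stem and progenitor list. Under 5 of the alternatives 1 stem and progenitor marker was called higher, and under 2 of them 1 basophil and mast cell marker.

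Antigen presentation and the basic machinery of the cell showed 0 calls by edgeR or limma-voom, and DESeq2 called 1 gene, a mitochondrial ribosomal RNA. This covers 21 MHC class I and peptide loading genes (median 0.10), 12 MHC class II genes with Cd74 (0.02), 50 nuclear genes of oxidative phosphorylation (0.02), 37 mitochondrially encoded RNAs (0.08) and 80 cytosolic ribosomal protein genes (0.03). An unadjusted p below 0.05 was found for 4 of the 21, 2 of the 12, 3 of the 50, 1 of the 37 and 2 of the 80. All 21 MHC class I genes had a positive log2 fold change, between 0.01 and 0.30. Without ct replicate 3, edgeR called 1 ribosomal protein gene and 1 mitochondrially encoded RNA higher, and without the filter it called 1 nuclear gene of oxidative phosphorylation and 1 mitochondrially encoded RNA higher and 1 mitochondrially encoded RNA lower. The mitochondrial ribosomal RNA mt-Rnr2 was 21728, 18663 and 20817.5 CPM in ct and 16243, 17862 and 15882.5 CPM in WT. Its groups did not overlap, but its log2 fold change of -0.29 was not called (edgeR adjusted p = 0.422). The summed level of the 37 mitochondrially encoded RNAs was 31304 ± 2386 CPM in ct and 26246 ± 2184 CPM in WT (SD, n = 3), and the groups overlapped.

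**Figure D5:**
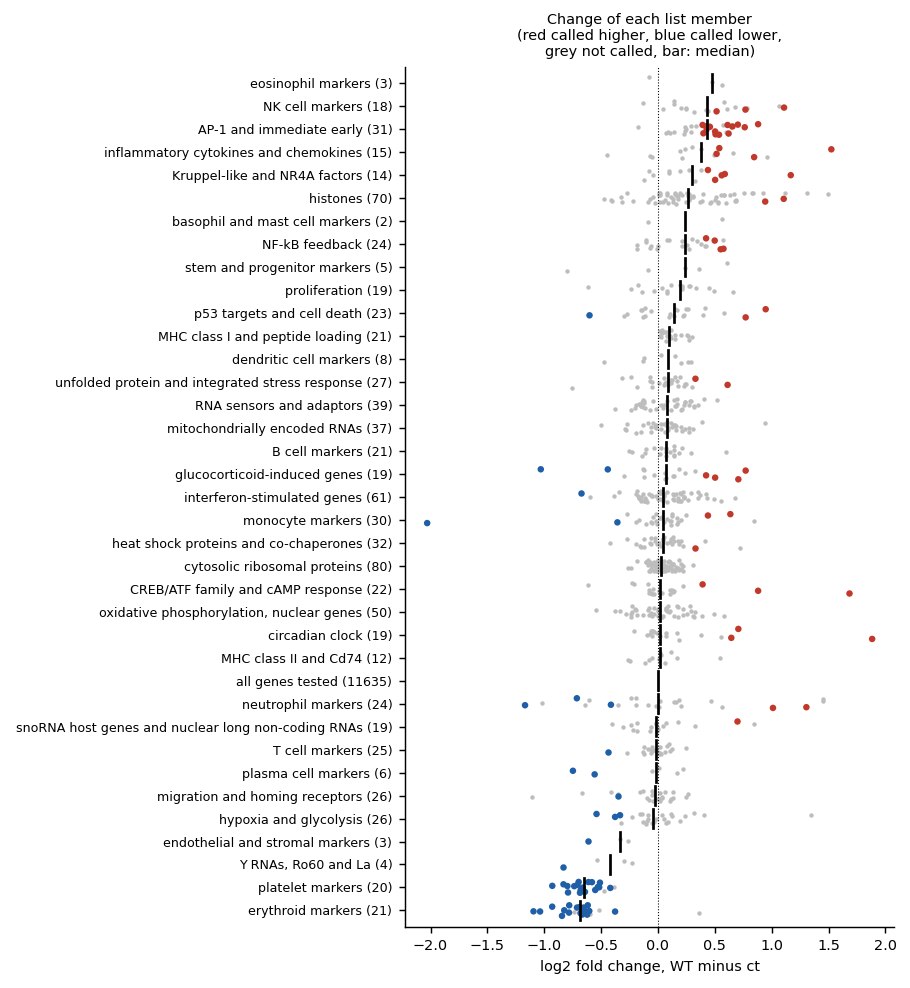
Log2 fold change between WT and ct of every tested member of 36 gene lists, sorted by list median, with the number tested in brackets. Red points were called higher, blue lower and grey not called, the black bar is the list's median and the dotted line the median of all genes; platelet and erythroid markers lie lowest, at -0.65 and -0.68, and AP-1 and immediate early genes among the highest, at 0.43.

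Further genes with the largest falls were the redox protein gene Prxl2a (log2 fold change -1.41, edgeR adjusted p = 0.00161), the retinaldehyde dehydrogenase Aldh1a1 (-1.14, adjusted p = 0.00261), the caveolar coat gene Cavin1 (-1.10, adjusted p = 0.00286), the Cdc42 effector Cdc42ep5 (-0.94, adjusted p = 0.0397, lost under 7 alternatives) and C530008M17Rik (-0.94, adjusted p = 0.0075). All stood between 5.89 ± 0.747 and 8.70 ± 1.23 CPM in ct and between 2.19 ± 0.258 and 4.50 ± 0.554 CPM in WT (SD, n = 3). Among the largest rises was also Fgl2, a fibrinogen-like protein of T cells and macrophages, from 7.85, 6.29 and 7.47 CPM in ct to 15.7, 13.8 and 13 CPM in WT (log2 fold change 0.97, adjusted p = 0.000794).

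The levels in the Y group, which share the WT libraries when set against them, are given for the same genes. Of all genes tested, 0.438% were called higher and 0.817% lower in Y than in WT by edgeR, 1.25% together. Jun, Creb5, Nr4a3, Tnfaip3 and Per1 were lower in Y than in WT, and Y was not tested against ct: Jun stood at 20.8 ± 1.93 CPM (Y minus WT -1.13 on the log2 scale, adjusted p = 5.99e-06), Creb5 at 6.94 ± 2.53 CPM (-1.65, adjusted p = 0.000239), Nr4a3 at 4.98 ± 0.379 CPM (-1.28, adjusted p = 0.000207), Tnfaip3 at 144 ± 0.671 CPM (-0.64, adjusted p = 0.000415) and Per1 at 46.1 ± 3.78 CPM (-1.10, adjusted p = 5.99e-06; SD, n = 3 throughout). Against the ct mean, the Y mean was lower for some of the genes that rose in WT, such as Dusp1 (71.8 CPM in Y against 99.7 CPM in ct), and higher for others, such as Junb (148 against 144 CPM) and Tnf (6.30 against 5.12 CPM). Ngp and Ltf, which rose in WT, had Y means above the WT means. They stood in Y at 13.2 ± 2.20 CPM (0.82, edgeR adjusted p = 0.0106) and 8.28 ± 0.658 CPM (0.42, adjusted p = 0.266). Of the erythroid genes, Slc4a1 stood in Y at 42.9 ± 1.80 CPM (-0.08, adjusted p = 0.833) and Hbb-bs at 1803 ± 62.1 CPM (0.05, adjusted p = 0.915). The platelet gene Thbs1, at 83.2 ± 3.56 CPM (0.55, adjusted p = 0.00403), and the summed level of the platelet markers, at 886 ± 11.6 CPM, lay between the ct and WT means. The neutrophil alarmin gene S100a8 was higher in Y than in WT, at 68.3 ± 2.23 CPM (2.01, adjusted p = 4.1e-09), and Ro60 stood at 14.3 ± 3.27 CPM (0.97, adjusted p = 0.00416).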

How the data were processed

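Total RNA of PBMCs was extracted with the Direct-zol RNA Microprep kit and made into libraries with the NEBNext Ultra II DNA kit, 3 libraries each in ct, WT and Y. For each gene, RSEM's expected counts were deposited, and so were TPM values, which are scaled per gene length and library and were kept only as group means. The submitters' processing notes name Trim Galore, STAR, featureCounts, RSEM and the builds hg38 and mm10, without versions, and the gene identifiers are murine. Whether counting used strand is not given in the sources used here, so overlapping and antisense genes cannot be told apart.

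Expected counts were rounded to whole numbers. Genes were kept by the default expression filter of edgeR 4.0.16 in R 4.3.3, scaled by TMM and tested by its quasi-likelihood test (contrast WT minus ct) in a single fit of the 9 PBMC libraries, which share the estimate of the spread. P-values were adjusted by Benjamini-Hochberg over 11635 genes, with calls below 0.05. The script was tested on simulated counts. Positions came from GENCODE M21, which matched 54587 of 55335 gene identifiers with their version. Promoters came from RefSeq on GRCm38.p6. The spliceosomal RNAs were assigned to families by local alignment to named copies, with a minimum score of 0.4 per reference base.

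Named genes were the 10 called genes with the largest rise and the 10 with the largest fall among those with separate groups and at least 5 CPM in the higher group, the 6 with the largest difference in CPM, and up to 4 called genes with the smallest p in each of 36 gene lists (up to 2 with the highest level where none was called, and every Y RNA gene). The members and lists were chosen with earlier results of these data known. Lists are described by counts and medians, with no set test. Alternatives changed the normalization, filter, libraries, tool and threshold (DESeq2 1.42.0, limma 3.58.1). The surface RNA tables were not used here.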

Additional observations from a re-analysis of the deposited data

How the results depend on the processing

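Of 86 named genes called in WT against ct, 39 kept their call and direction under every alternative that gave a value. With library totals, 26 genes were higher and 100 lower (20.6% higher, against 32.4% with TMM), and 1 AP-1 and immediate early gene and 1 Kruppel-like and NR4A factor were called. DESeq2 called 47 higher, with 2 Kruppel-like and NR4A factors. Without the filter, 238 were higher and 246 lower (49.2% higher), over 29571 genes. An adjusted p below 0.01 left 35 higher and 98 lower, and a change of at least 2-fold 17 and 13. Leaving out each ct or WT library, or Y replicate 1, gave 56 to 126 higher and 111 to 171 lower genes, 11 to 15 AP-1 and immediate early genes and 2 to 5 Kruppel-like and NR4A factors. The higher count fell without ct replicate 1 (57), ct replicate 2 (56) or WT replicate 2 (57) and rose without WT replicate 1 (126), and the lower count fell most without ct replicate 3 (123) or WT replicate 2 (111). The share of higher calls was 42.5% without ct replicate 3 and 49.8% without WT replicate 1. The 2 added alternatives, chosen after seeing the data, gave 82 and 140 calls (platelet and erythroid markers left out) and 79 and 171 (without Y replicate 1). The cause of these shifts was not tested. Directions reversed only for genes that were not called: with library totals, the log2 fold changes were -0.072 for Atp5a1, -0.067 for Rpl13a, -0.053 for Cd74, -0.054 for Ighm, -0.045 for Tcf4 and -0.010 for H2-Eb1. Leaving out 1 library at a time gave ranges of -0.064 to 0.048 for Atp5a1, -0.090 to 0.17 for Rpl13a, -0.00031 to 0.053 for Ighm, -0.14 to 0.052 for Sidt2, -0.067 to 0.072 for Sidt1, -0.071 to 0.045 for Atp5b, -0.0052 to 0.083 for Tcf4, -0.16 to 0.0045 for Gata2 and -0.0047 to 0.088 for Cd74. Atp5a1 also went from 0.00030 to -0.00021 with the replicate block, to -0.00062 without the platelet and erythroid markers and to -0.00056 without Y replicate 1. Whether the replicate numbers pair the samples is not given in the sources used here. Deviations of same-numbered ct and WT libraries correlated at -0.0068, 0.059 and 0.043. Those of differently numbered libraries correlated between -0.069 and 0.025, and with 3 libraries per group these values cannot decide the question. With the replicate block 75 genes were higher and 159 lower. Ciart and Cks2 were scarce, with ct libraries below 1 CPM, and the effect of depth on such genes was not tested.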
